A study of Mus musculus with 2 samples.

Results

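The genes described here encode serum amyloid A proteins (Saa1, Saa2 and Saa4), orosomucoids (Orm1 and Orm2), haptoglobin (Hp), fibrinogen-like 1 (Fgl1) and inter-alpha-trypsin inhibitor heavy chain 4 (Itih4). These 8 genes were found by symbol among the 2783 genes in 2 tables of cluster markers from single-cell RNA sequencing (scRNA-seq) of mouse liver cells. The tables hold 2 libraries, 1 for each condition, of primary hepatocytes from wild-type BALB/c mice given PBS or 0.5 µg of rIL-33 by intraperitoneal injection each day, over 5 days. The mice were fasted and, under the protocol for isolating hepatocytes, 8 to 10 weeks old, and the cells were released by enzymatic perfusion of the liver and loaded without sorting on a droplet system that reads the 3ʹ ends of transcripts. The authors pooled both libraries in the tables, so PBS and rIL-33 cells cannot be told apart in any value below, there are no replicates and no test was run.

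Acute-phase proteins are plasma proteins whose production in hepatocytes changes during inflammation. Interleukin-6 acts through its receptor and the transcription factor STAT3, interleukin-1 acts through NF-κB, and factors of the C/EBP family act with both on the promoters of these genes. Saa1 and Saa2 encode the strongly inducible serum amyloid A forms that travel with high-density lipoprotein, while Saa4 encodes the constitutive form. Orm1 and Orm2 encode alpha-1-acid glycoproteins, which bind drugs and other small molecules in plasma, Hp encodes the protein that captures free haemoglobin, Fgl1 encodes a secreted hepatocyte protein that also binds the immune receptor LAG-3, and Itih4 encodes a plasma protein of the inter-alpha-trypsin inhibitor family.

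In GENCODE M21 on GRCm38, the assembly that mm10 names, all 8 are protein-coding genes. On chromosome 7, Saa4 spans 46727998 to 46732603 and Saa1 spans 46740497 to 46742980, both on the minus strand. Saa2 spans 46751790 to 46754313 on the plus strand, so that Saa1 and Saa2 start 8809 bases apart and point away from each other. On chromosome 4, Orm1 (63344560 to 63348163) and Orm2 (63362449 to 63365878) lie on the plus strand with 14285 bases between them. Hp (109575128 to 109579172) and Fgl1 (41191434 to 41215156) lie on the minus strand of chromosome 8, and Itih4 (30886476 to 30902353) on the plus strand of chromosome 14.

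The upstream sequences of Saa1 and Saa2 are shown because these genes were listed for the same cluster, and that of Orm2 because it is the orosomucoid gene with a window in the reference used here. RefSeq promoter windows (GRCm38.p6) were matched for 5 of the 8 members, Saa1, Saa2, Saa4, Orm2 and Itih4. They were searched on both strands over the 250 bases before the RefSeq start of the gene. For Saa2 these bases end at 46751832, inside the GENCODE span given above. Each line gives the 200 of these bases that lie farthest from the start, 5ʹ to 3ʹ on the strand of the gene. Capitals mark a match to TTNCNNNAA on either strand. This form was searched for C/EBP, but its TT and AA stand farther apart than in the usual C/EBP motif. A match is therefore not read as a C/EBP site, and sites of the usual spacing were not searched. The capitals can thus miss letters of the usual spacing. TT and AA stand closer in ttgcgcaa, inside the Orm2 match, and in the unmarked ttgcacaa of Saa1 and Saa2. How many of all windows hold such letters was not counted, and no site is read from them. The regions are chr7:46743031-46743230 (minus strand), chr7:46751583-46751782 (plus strand) and chr4:63362199-63362398 (plus strand).
Saa1: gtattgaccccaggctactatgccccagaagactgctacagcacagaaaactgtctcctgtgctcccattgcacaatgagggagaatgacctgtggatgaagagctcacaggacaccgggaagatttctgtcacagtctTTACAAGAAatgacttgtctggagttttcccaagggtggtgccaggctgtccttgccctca
Saa2: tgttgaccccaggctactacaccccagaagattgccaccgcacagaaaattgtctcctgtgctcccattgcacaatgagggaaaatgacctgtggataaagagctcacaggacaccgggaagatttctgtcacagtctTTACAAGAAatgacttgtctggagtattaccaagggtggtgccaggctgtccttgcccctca
Orm2: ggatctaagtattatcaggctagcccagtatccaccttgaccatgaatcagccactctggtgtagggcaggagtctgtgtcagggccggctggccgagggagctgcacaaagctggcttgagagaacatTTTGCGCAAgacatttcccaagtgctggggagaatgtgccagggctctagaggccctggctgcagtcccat

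The 250 bases before the RefSeq starts of Saa1 and Saa2 were identical at 94.8% of aligned positions. Both held the same 9 letters of the form TTNCNNNAA, starting at -111 and -112 from the RefSeq start. All 5 windows held this form, which was present in 32.9% of the 32851 RefSeq windows of the same length. The STAT form TTCNNNGAA was found in 1 of the 5 windows, that of Itih4, and in 7.02% of all windows. In Itih4 it covered the same bases as the match to TTNCNNNAA. Neither an NF-κB form (GGG, 2 free bases, TT, 1 free base, CC) nor an HNF1 form (GTTAAT, 1 free base, ATTAA) was found in the 5 windows, against 4.11% and 0.0609% of all windows. These are matches of letters in a short window and do not show binding.

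Because the assay reads 3ʹ ends, the last 500 bases of the transcripts of related genes were also compared. No window of 90 bases in the last 500 of Saa1 occurred in a coding transcript of Saa2, and the longest run shared by both was 73 bases. For Orm1, 67 of 411 such windows (16.3%) also occurred in Orm2, with a longest shared run of 141 bases. Reads from these stretches cannot be assigned to 1 of both Orm genes, so in this respect their values are less certain than those of the serum amyloid genes. Hp, Fgl1 and Itih4 were not compared with related transcripts.

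Each row of the tables pairs a gene with a cluster and gives 2 shares, that of the cells inside the cluster and that of the reference cells in which the gene had a value above 0. Such a gene is called detected in a cell here. A gene has a row, called listed here, where the authors' marker search kept it for that cluster, and the members are therefore selected on these same measurements. All counts of listed members are descriptions for this reason. The search also gave a change in mean with p-values, which are results of the authors and were not used or printed here. In the hepatocyte table (1604 named genes), the reference for a hepatocyte cluster, of which there were 5, was the rest of the hepatocytes. In the table of all cells (1755 genes, 12 clusters) it was every cell outside the cluster. The tables give neither depth per cell nor cell numbers, so no interval for counting error is given, and a share of 100% stands for any value that rounds to it at 3 decimals of a fraction. The shares themselves fix the relative size of each cluster, since the share over all cells must be the same from every row of a gene. By this balance, Hepatocyte1 held 55.6% of the hepatocytes, Hepatocyte4 18.1%, Hepatocyte2 14.9%, Hepatocyte3 10.1% and Hepatocyte5 1.47%.

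Of the 8 members, 6 were listed in the hepatocyte table, 7 in the table of all cells and 6 in both. Orm2 was listed in the table of all cells alone, and Saa4 was listed in neither table. In the table of all cells, all 10 rows of members belonged to hepatocyte clusters and 0 to the 7 other clusters. Of all 3742 rows, 31, 10, 37, 443 and 434 belonged to Hepatocyte1 to Hepatocyte5. The other clusters were named Kupffer cells, neutrophils, B cells, T cells, endothelial cells, red blood cells and hepatic stellate cells (HSC) with fibroblasts. A missing row does not show that a member was absent from a cluster. Of 41 defining markers of the named cell types, 30 were listed for a cluster of their own type. These included 5 of 6 for hepatocytes, 2 of 5 for the endothelial cluster and 2 of 6 for the red blood cell cluster. The remaining red blood cell markers, which are haemoglobin genes, had no row for any cluster. Of the 5 endothelial markers, 4 were listed for clusters of other types, so that cluster name is less certain. For T cells, and for stellate cells with fibroblasts, it was 1 marker each.

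Among hepatocytes, Hepatocyte1 had the most members with a row. Saa1, Saa2, Orm1, Hp and Fgl1 were listed for it, 5 of the 6 members with a row against 10.5% of all genes in the table. Itih4 was the 1 member listed for Hepatocyte4 (54.7% of all genes), and Hp, Fgl1 and Itih4 were listed for Hepatocyte5 (54.3% of all genes). No member was listed for Hepatocyte2 (3.49% of all genes) or Hepatocyte3 (7.67%). Of the 9 rows of members, 6 had a higher share inside the cluster than outside it, and all 3 rows with a lower share were in Hepatocyte1.

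**Figure D1:**
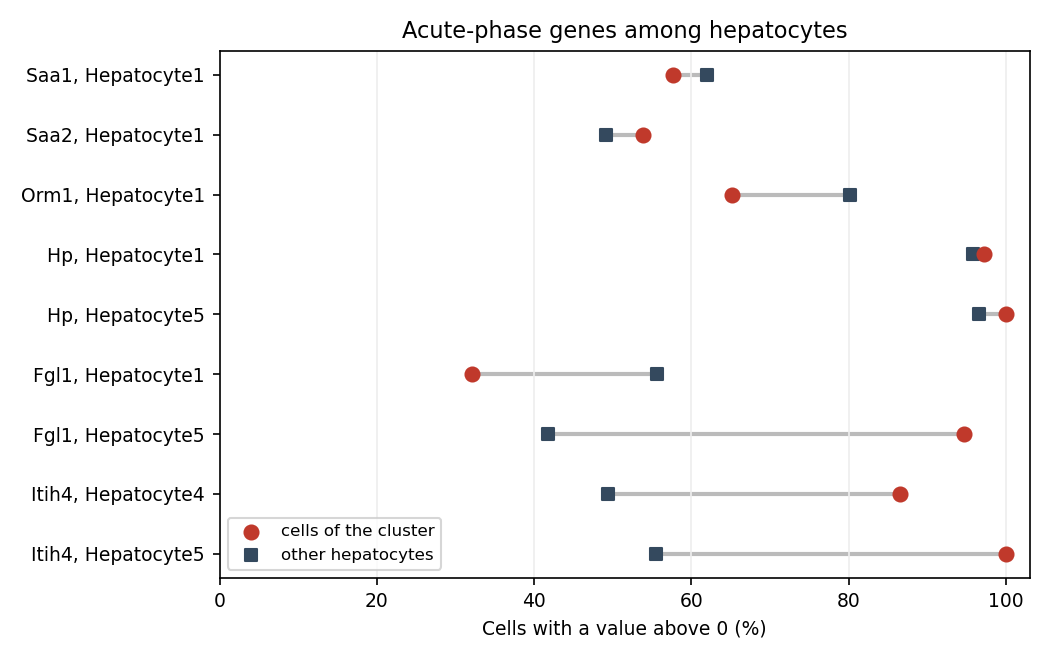
Detection (x axis, percent of cells with a value above 0) for each row of a member in the hepatocyte table. Circles are the cells of the named cluster and squares the other hepatocytes, both libraries pooled, with no error bars because there are no replicates. Saa1, Orm1 and Fgl1 had a lower share inside Hepatocyte1 than outside, and Itih4 and Fgl1 had a much higher share inside Hepatocyte5.

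The serum amyloid genes were detected in about the same part of the cells in Hepatocyte1 as in the rest, and in opposite directions. Saa2 was detected in 53.8% of Hepatocyte1 cells and 49.1% of the rest, which is 4.7 percentage points more inside. Saa1 was detected in 57.6% of Hepatocyte1 cells and 62.0% of the rest, a difference of -4.4 percentage points. A cell without a value is not shown to lack the transcript, since depth is unknown, and in the table of all cells the shares of the same Hepatocyte1 cells were 99.2% for Saa1 and 98.7% for Saa2. The share with Saa1 exceeded the share with Saa2 by 12.9 percentage points outside Hepatocyte1 and by 3.8 percentage points inside it. Over all hepatocytes, the balance of shares gave detection in 59.6% for Saa1 and 51.7% for Saa2.

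In the hepatocyte table, Orm1 was detected in more cells than the serum amyloid genes, and in fewer cells of Hepatocyte1 than elsewhere. Its share was 65.1% inside Hepatocyte1 and 80.1% elsewhere, a difference of -15.0 percentage points. Over all hepatocytes it was 71.8%. Both statements turn in the table of all cells, where the share over all cells was 87.6% for Orm1, 96.3% for Saa1 and 95.5% for Saa2, and where Orm1 was 5.4 percentage points higher inside Hepatocyte1. Hp was near saturation throughout. It was detected in 97.2% of Hepatocyte1 cells and 95.8% of the rest, and in 100% of Hepatocyte5 cells and 96.6% of the rest. Read from the other side, 2.8% of Hepatocyte1 cells and 4.2% of the other hepatocytes had no Hp value. Solving for Hepatocyte2, Hepatocyte3 and Hepatocyte4 together, for which Hp was not listed, left 95.7% of their cells with a value (95.6 to 95.9% from the rounding of the shares).

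Fgl1 was the member whose share differed most between the clusters it was listed for, and it was listed both for Hepatocyte1, with a lower share inside, and for Hepatocyte5, with a higher one. It was detected in 32.1% of cells inside Hepatocyte1 and 55.6% elsewhere. In Hepatocyte5 these shares were 94.7% and 41.8%. The solved share in the remaining 3 clusters together was 54.3% (54.2 to 54.4%). The order from high to low was therefore Hepatocyte5, then the 3 remaining clusters as 1 group, then Hepatocyte1, with gaps wider than the rounding, and counting error not included.

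Among the members in the hepatocyte table, only Itih4 had no row for Hepatocyte1. Its clusters, Hepatocyte4 and Hepatocyte5, were exactly those of 429 non-member genes, so this listing is no result about Itih4. Detection reached 86.5% inside Hepatocyte4 and 49.4% elsewhere, and 100% inside Hepatocyte5 and 55.5% elsewhere. In Hepatocyte1, Hepatocyte2 and Hepatocyte3 together the solved share was 48.5% (48.4 to 48.6%). Itih4 was thus detected in every Hepatocyte5 cell to the precision of the table and in close to 1 of 2 cells where it was not listed.

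These differences must be set beside those of all genes listed for the same cluster. Of the 169 named rows of Hepatocyte1, 94.1% had a lower share inside the cluster, with a median difference of -22.8 percentage points. Saa2 and Hp were among the 8 rows with a higher share, at ranks 2 and 3 by difference, behind Lars2, and Saa1 and Orm1 followed at ranks 14 and 30. Fgl1, with a difference of -23.5 percentage points, lay at rank 89, next to the median. In Hepatocyte4, by contrast, 0.114% of rows had a lower share. The median difference was 33.1 percentage points there and 42.9 in Hepatocyte5. Itih4 differed by 37.1 percentage points in Hepatocyte4 (rank 340 of 877) and 44.5 in Hepatocyte5 (rank 403 of 871), and Fgl1 by 52.9 in Hepatocyte5 (rank 279). Hp differed by 3.4 percentage points in Hepatocyte5 (rank 868), where its share outside the cluster left no room for more. Most rows of a cluster thus shared 1 direction with or without the members, and since depth per cell is unknown, its part in the differences was not tested.

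**Figure D2:**
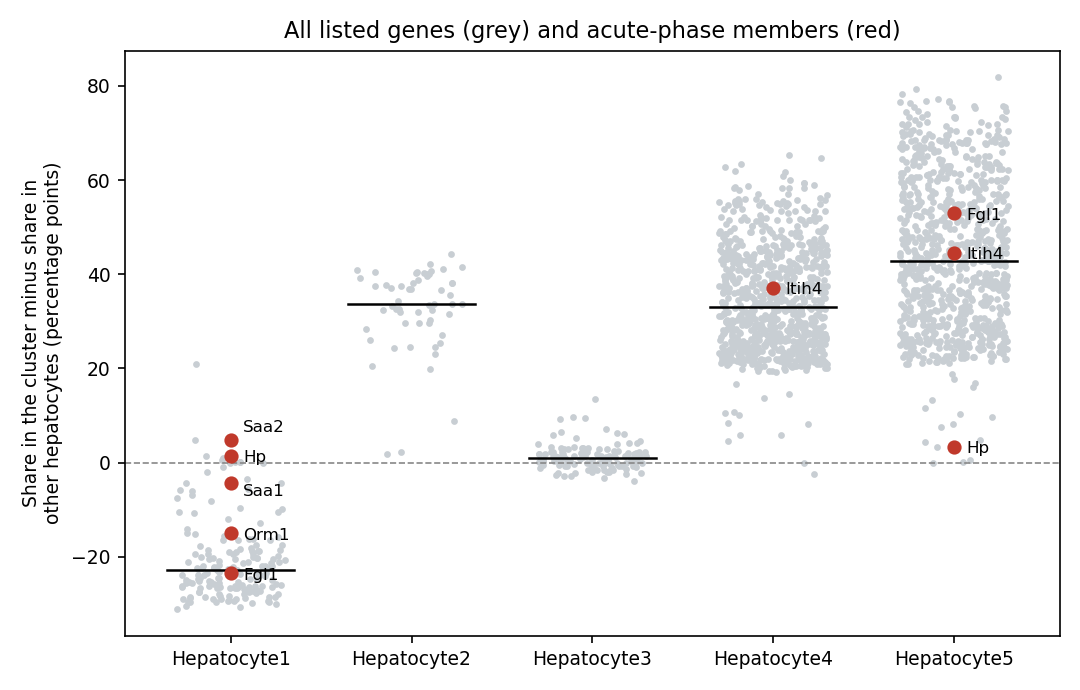
Difference between the share of cells with a value inside each hepatocyte cluster and in the other hepatocytes (y axis, percentage points). Each grey point is a listed gene, black lines are medians and red points are members, with points spread sideways at random. Saa2 and Hp lie above most genes of Hepatocyte1, whose median is -22.8, while Itih4 lies near the medians of Hepatocyte4 and Hepatocyte5.

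The table of all cells gave another picture of the same clusters. There, Saa1, Saa2, Orm1 and Hp were listed for Hepatocyte1 (4 of the 7 members with a row, 1.77% of all genes). Fgl1 was listed for Hepatocyte2 (0.57%), Itih4 for Hepatocyte4 (25.2%) and Orm2, Hp, Fgl1 and Itih4 for Hepatocyte5 (24.7%). All 10 rows of members had a higher share inside the cluster. Among all genes, 32.3% of Hepatocyte1 rows had a lower share. In the other 3 clusters it was 0 of 10 rows for Hepatocyte2, 3 of 443 for Hepatocyte4 and 0 of 434 for Hepatocyte5. Outside Hepatocyte1, the members thus had the direction of nearly all rows of their clusters. In Hepatocyte1, Saa1 was detected in 99.2% of cells against 93.5% of all other cells, Saa2 in 98.7% against 92.4%, and Orm1 in 90.3% against 84.9%. Orm2, which had no row in the other table, was detected in 95.4% of Hepatocyte5 cells and 60.6% of all other cells, a difference of 34.8 percentage points. Fgl1 was detected in 93.3% of Hepatocyte2 cells against 72.9%, and in 100% of Hepatocyte5 cells against 75.3%.

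**Figure D3:**
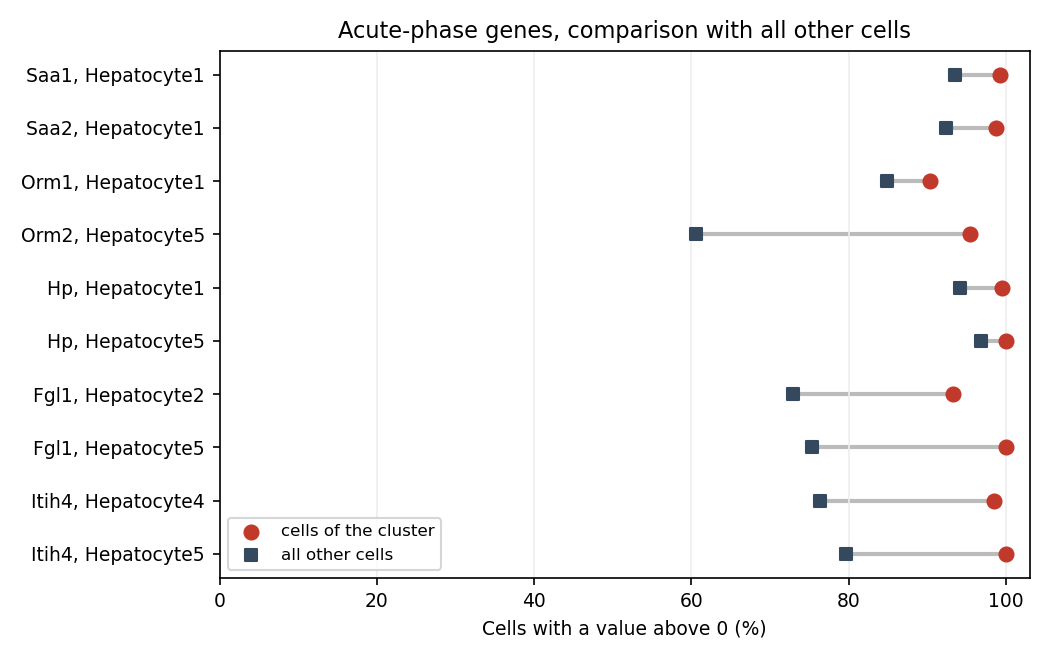
Detection (x axis, percent of cells with a value above 0) for each row of a member in the table of all cells. Circles are the cells of the named cluster and squares all other cells, both libraries pooled, with no error bars because there are no replicates. All 10 rows have a higher share inside the cluster, and Orm2 in Hepatocyte5 has the widest gap at 34.8 percentage points.

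The share inside a cluster should not depend on the reference cells, and the rescaled sizes of the hepatocyte clusters differed by at most 0.0942 percentage points between the tables. The share inside the cluster nevertheless differed for 6 of the 8 member rows present in both tables. For Saa2 in Hepatocyte1 it was 53.8% in the hepatocyte table and 98.7% in the table of all cells, which is 44.9 percentage points more. For Saa1 it was 41.6 percentage points more, for Orm1 25.2, for Itih4 in Hepatocyte4 11.9, for Fgl1 in Hepatocyte5 5.3 and for Hp in Hepatocyte1 2.3. Hp and Itih4 in Hepatocyte5 were at 100% in both. Among all 825 rows present in both tables, 704 had a higher share in the table of all cells, with a median of 10.5 percentage points more, and the members of Hepatocyte1 were at ranks 1, 2, 4 and 9 of its 10 shared rows. A value above 0 in the table of all cells is therefore not the same measurement as in the hepatocyte table. How the values of each table were made from the counts beyond the steps given for both is not given in the sources used here, and the cause of the difference was not tested.

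**Figure D4:**
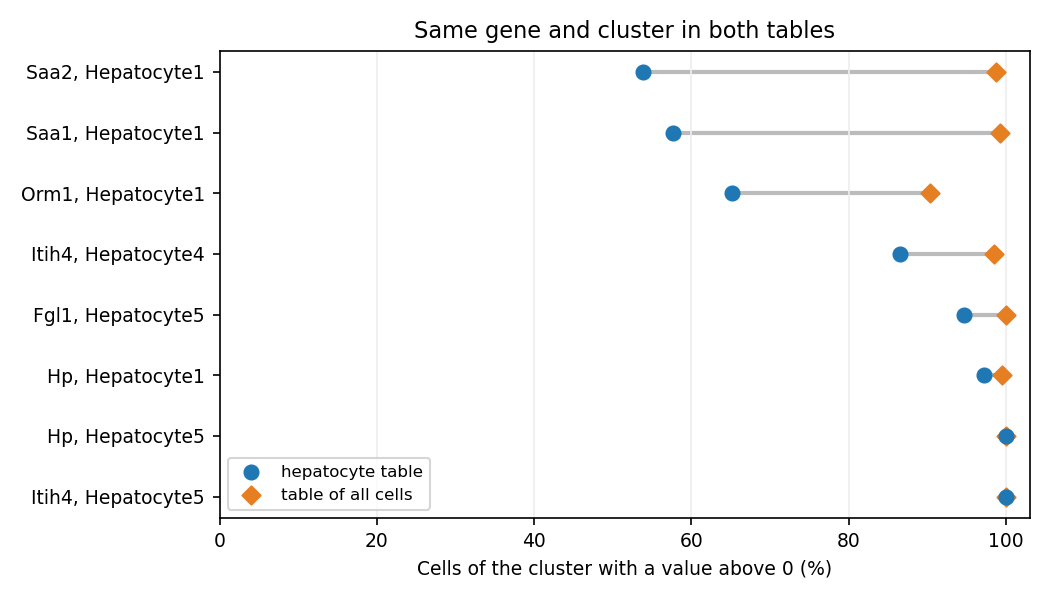
Detection inside the same cluster (x axis, percent of cells with a value above 0) for the 8 member rows found in both tables. Circles are the hepatocyte table and diamonds the table of all cells. Saa2, Saa1 and Orm1 in Hepatocyte1 lie 44.9, 41.6 and 25.2 percentage points higher in the table of all cells, and Hp and Itih4 in Hepatocyte5 are at 100% in both.

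Hepatocyte transcripts were also counted as present in other cell types in that table. Non-hepatocyte clusters made up 10.2% of the cells. Even if every other hepatocyte had a value above 0, the shares outside Hepatocyte1 require one in at least 62.4% of the non-hepatocytes for Saa2, 67.8% for Saa1, 71.0% for Hp and 25.3% for Orm1. For Orm2, Fgl1 and Itih4 the same balance set no lower limit above 0. Cells that should lack a liver plasma protein thus reached high shares for Saa1, Saa2 and Hp. The cause was not tested, and no expression in a given cell is read from these shares. The depth of each cell type is unknown.

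Genes whose shares most resembled those of each member were taken from the genes listed for exactly the same hepatocyte clusters, by the mean absolute difference over both shares of each row. Among 126 such genes, the nearest to Orm1 were Mpc2 (1.45 percentage points) and Hint1 (2.05), which encode a mitochondrial pyruvate carrier subunit and a nucleotide hydrolase. The nearest to Saa1 were Atp5j2 (9.0) and Cox6b1 (9.1), subunits of ATP synthase and cytochrome c oxidase, and the nearest to Saa2 were Mup17 (10.3) and Hint2 (13.1). Neither serum amyloid gene therefore had a close neighbour. For Fgl1, with 3 candidates, the nearest was Mup1 (3.65 percentage points), a major urinary protein with 31.1% of Hepatocyte1 cells and 84.8% of Hepatocyte5 cells, followed by Mup7 (23.8). The same genes were nearest to Hp but far from it (45 and 65.2). Among 429 candidates, Itih4 was nearest to Itm2b (1.30) and Ctsl (1.98), which encode a membrane protein and the lysosomal protease cathepsin L.

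Other genes of the acute-phase response were tallied in the hepatocyte table in the same way. Of 32 further genes taken here as positive acute-phase genes, 24 were listed for a hepatocyte cluster. This group is described as raised in inflammation, but not all of its genes, such as Mt1 and Mt2, encode plasma proteins. Of these 24, Hepatocyte5 listed 20 and Hepatocyte4 listed 17, beside 54.3% and 54.7% of all genes with a row in the table. Both counts are a larger part than that of all genes. The genes were chosen with earlier results of these data known, so the counts are descriptions and were not tested. All of these rows had a higher share inside the cluster, as did nearly all rows of both clusters. The median difference was 53.8 percentage points in Hepatocyte5 and 42.3 in Hepatocyte4, beside 42.9 and 33.1 over all rows of these clusters. Hepatocyte1 listed 2 of the 24 genes, beside 10.5% of all genes, and in neither was the share higher inside. In the table of all cells, 21 of the 32 had a row for a hepatocyte cluster. Hepatocyte1 listed 4 there, beside 1.77% of all genes, all with a higher share inside, by 4.1 to 7.5 percentage points. Of all 31 rows of Hepatocyte1 there, 21 had a higher share inside. Hamp, which encodes the iron hormone hepcidin, was detected in 66.2% of Hepatocyte1 cells and 72.2% of the rest, and the metallothionein gene Mt1 in 98.6% of both. Hepatocyte3 also listed 2 (Mt1 and Mt2) and Hepatocyte2 listed 1 (Serpina1a), beside 7.67% and 3.49% of all genes.

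The heavy chain genes related to Itih4 were listed for the same clusters as Itih4. So were 429 non-member genes in all, of the 1604 genes in the table, so this listing is no result about the family. Itih1 was detected in 99.3% of Hepatocyte5 cells against 21.0% elsewhere, and in 61.6% of Hepatocyte4 cells against 13.4%. Itih2 was detected in 97.4% against 24.1% and in 65.5% against 16.3%. Among the other genes with the widest gaps in Hepatocyte5, Lbp, which encodes the lipopolysaccharide-binding protein, had 88.7% against 18.5%. The complement genes C4b and Cfb had 100% against 31.8% and 100% against 33.9%. Cp, which encodes the copper carrier ceruloplasmin, had 94.0% of Hepatocyte4 cells against 29.3%, and 100% of Hepatocyte5 cells against 40.2%.

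All 10 negative acute-phase genes, whose proteins fall in plasma during inflammation, were listed for a hepatocyte cluster, 8 for Hepatocyte5, 5 for Hepatocyte4 and 2 for Hepatocyte1, beside 54.3%, 54.7% and 10.5% of all genes. Fetub, which encodes fetuin-B, was detected in 92.7% of Hepatocyte5 cells against 32.9% elsewhere, and Mup20 in 88.1% against 48.8%. Serpina6, the corticosteroid-binding globulin gene, had 35.8% against 5.0%. The median difference was 8.6 percentage points in Hepatocyte5 and 8.4 in Hepatocyte4, where Ahsg, Trf, Mup3 and Alb were detected in at least 88.6% of the rest. The 2 genes listed for Hepatocyte1, Ttr and Rbp4, were saturated, at 99.9% each inside the cluster and 99.8% and 99.7% outside.

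Of 19 receptors and transcription factors of the response, 8 were listed, all of them for Hepatocyte4 and 4 also for Hepatocyte5, again beside 54.7% and 54.3% of all genes. Il6ra, the interleukin-6 receptor gene, was detected in 33.4% of Hepatocyte4 cells against 4.5% elsewhere, and in 47.7% of Hepatocyte5 cells against 9.1%. Il6st, which encodes the shared signalling subunit gp130, had 28.7% against 4.0% and 57.0% against 7.8%. Il1r1, an interleukin-1 receptor gene, had 29.9% against 4.4% and 52.3% against 8.4%. Lifr, the leukaemia inhibitory factor receptor gene, had 27.4% against 5.7% and 60.9% against 8.9%, and the C/EBP factor gene Cebpa had 48.8% of Hepatocyte4 cells against 11.8%. None of the 19 was listed for Hepatocyte1, Hepatocyte2 or Hepatocyte3, beside 10.5%, 3.49% and 7.67% of all genes. With so few genes listed for these clusters, this is no result about the receptors and factors. It also does not show that they were absent there.

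**Figure D5:**
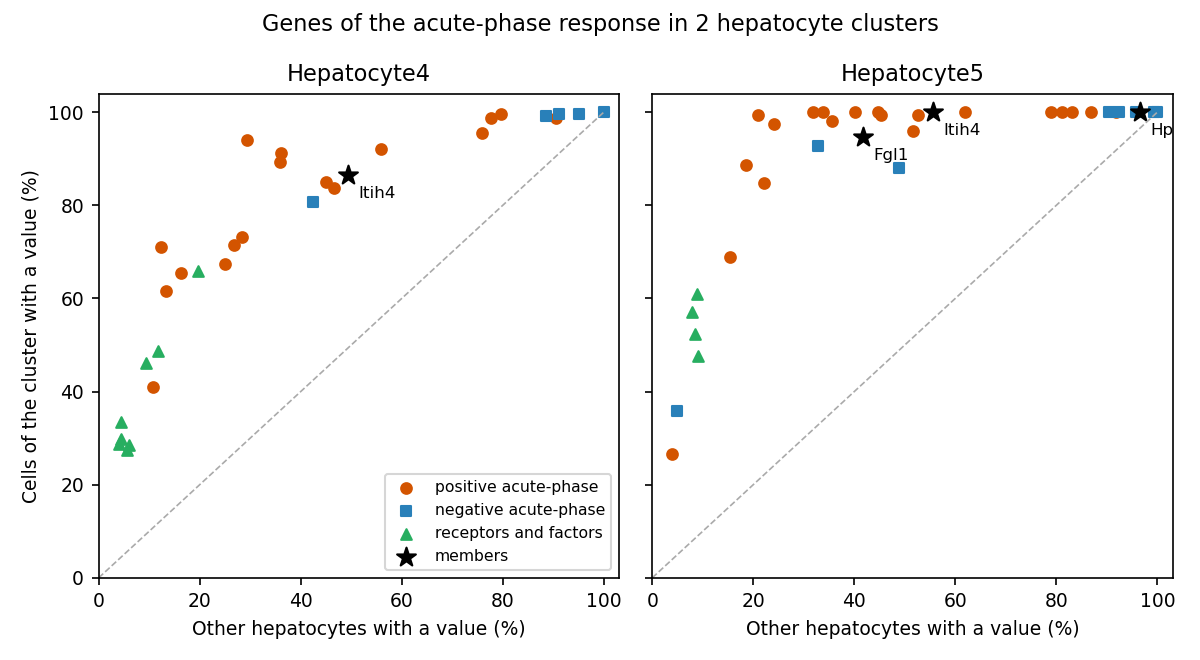
Percentage of cells in which a gene was detected in Hepatocyte4 (left) and Hepatocyte5 (right) on the y axis against the percentage in the other hepatocytes on the x axis. Each point is a listed gene of the acute-phase response, stars are members and the dashed line marks equal shares. Receptors and factors lie at the left, with 4.0 to 19.7% of the other hepatocytes and 27.4 to 65.9% of the cells of the cluster. Most plasma protein genes of Hepatocyte5 lie near 100% inside the cluster.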

How the data were processed

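Per the study's methods, Cell Ranger on mm10 gave the UMI counts. In Seurat, the authors kept cells of 200 to 3000 genes and at most 50% mitochondrial content, with the upper limit set against possible doublets (no doublet caller was run here), scaled them to 10000, log-transformed them (natural log), clustered on 50 principal components at resolution 5 and ran FindAllMarkers on the merged libraries. The deposited values used are fractions, 1 for the cells inside and 1 for those outside a cluster in which a gene exceeded 0, printed as percentages. The other value columns of both tables hold the authors' change in mean and unadjusted and adjusted p-values and were not used. Of 2103 rows of the hepatocyte table, 7 with gene names stored as dates were left out.

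Cluster sizes were fitted by least squares to genes with rows for at least 2 clusters (486 in the hepatocyte table and 1115 in the table of all cells), and the fit was tested on simulated shares. Ranges cover the rounding of shares. Named genes were the members, the 2 genes nearest to each, and at most 6 per list with the widest gap. Lars2, Hamp, Mt1, Mt2, Serpina1a, Ttr, Rbp4, Alb and Saa3 were named after their values were seen. Members and lists were chosen with earlier results of these data known. Depth per library is unknown. Positions and transcripts are from GENCODE M21 and promoters from RefSeq. Alternatives were other rows, fits, tables, limits on share differences and window lengths. Python 3.11.15, NumPy 2.4.6, pandas 2.3.3, SciPy 1.17.1 and matplotlib 3.10.9 were used.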

Additional observations from a re-analysis of the deposited data

How the results depend on the processing

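With both libraries pooled, no replicate could be left out and no spread was available, so a value was taken as unmoved where it shifted by less than 1 percentage point and a count where it stayed within 1.5 times. All 39 alternative cluster sizes and all 26 alternative shares for unlisted clusters were unmoved. Taking the rows from the table of all cells turned the difference between inside and outside Hepatocyte1 from -4.4 to 5.7 percentage points for Saa1 and from -15.0 to 5.4 for Orm1. It also moved Saa2 to 6.3 and Hp to 5.4 in Hepatocyte1, Fgl1 to 24.7 and Itih4 to 20.4 in Hepatocyte5, and Itih4 to 22.1 in Hepatocyte4. The reference cells and the values differ between the tables, and the cause was not tested. Fgl1 in Hepatocyte1 had no row there. Of the 5 members listed for Hepatocyte1, 2 remained with a higher share inside and 0 with at least 10 percentage points more, also 0 in the table of all cells. Of the other acute-phase genes, 2 had a higher share inside Hepatocyte1, and 0 were listed for Hepatocyte2 and 0 for Hepatocyte3 in the table of all cells. With windows of 50 bases in place of 90, 5.32% were shared by Saa1 and Saa2 in either direction, 2.0% of Saa1 occurred in Saa3, 32.6% were shared by Orm1 and Orm2, and 3.55% of Orm1 and 5.76% of Orm2 occurred in Orm3. No paired analysis was possible because the tables hold no value per library.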

Other observations

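Saa3, a serum amyloid gene outside the members that is known from macrophages and fat cells, had a single row in the table of all cells, for B cells. It had a value above 0 in 4.5% of B cells and 39.3% of all other cells, a difference of -34.8 percentage points and the lowest of the 511 rows of that cluster.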
